A study of Arabidopsis thaliana with 18 samples.

Results

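Transcripts of the mitochondrial genome of Arabidopsis thaliana were described in seedlings of a BONZAI copine mutant and of wild type, with and without abscisic acid (ABA) or mannitol. The members were taken by identifier alone: every row of the expression table whose identifier starts with ATMG, the prefix of mitochondrial loci, was included. There were 152 such rows of 33082 in the table, each measured in all 18 libraries. No expression value entered this rule, but the members were chosen with earlier results of these data known.

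Mutant plants were of the genotype labelled bon123t, here bon123, a triple mutant by the series title. The other plants were wild type (WT), and both genotypes had the Col-0 background. Seedlings were 9 days old, had grown on upright plates, and were treated on 1/2 MS medium with 100 µM ABA (the hormone of drought stress), with 300 mM mannitol (a sugar alcohol that draws water from cells) or with a mock treatment. The sample labels give 12 h of treatment and the series text gives 24 h, so the duration is uncertain. The 6 groups of 3 libraries were bon123 ABA, bon123 mannitol, bon123 mock, WT ABA, WT mannitol and WT mock. The sources used here do not say whether the replicates came from separate plates, how the alleles were made, or whether poly(A) selection, rRNA removal or a strand-specific kit was used. P-values therefore measure the spread between these libraries, which may be technical.

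The plant mitochondrial genome encodes the ribosomal RNAs and some ribosomal proteins of the organelle's own ribosome, core subunits of respiratory complexes I, III, IV and V, and proteins that attach haem to cytochromes of the c type. Most other mitochondrial proteins, including the RNA polymerases and splicing factors, are made from nuclear genes and imported. Mitochondrial transcripts carry no stable poly(A) tail, and a tail marks them for decay, so the way a library selects RNA bears on how many of them it catches. A long piece of the mitochondrial genome is also inserted in nuclear chromosome 2, and reads from a gene and its inserted copy are hard to tell apart.

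Values are TPM, a level per unit of transcript length in which every library has the same total, so read depth is unknown. The tissue label was checked against marker genes before any comparison. The shoot markers were far lower in bon123 than in WT: RBCS1A, a small subunit of Rubisco, had 35.3 to 428 TPM in bon123 libraries against 4462 to 14217 TPM in WT libraries, and the light-harvesting gene LHCB3 had 20.8 to 278 TPM against 2985 to 5463 TPM. All 4 shoot markers separated the genotypes without overlap in this direction, whereas all 4 root markers (PYK10, COBL9, SHR and WER) overlapped between them. PYK10 had 1422 to 16411 TPM in bon123 and 1203 to 2563 TPM in WT, and COBL9 1.54 to 5.05 TPM and 0.54 to 6.55 TPM. SHR had 0.44 to 9.00 TPM in bon123 and 3.39 to 8.46 TPM in WT, and WER 0.07 to 2.26 TPM and 0.78 to 4.77 TPM. BON1 had 0.25 to 1.66 TPM in bon123 and 10.1 to 18.3 TPM in WT, BON2 2.85 to 16.2 TPM and 21.3 to 36.3 TPM, and BON3 0.22 to 0.75 TPM and 0 to 0.17 TPM. BON3 was thus higher in every bon123 library than in any WT library and BON2 still reached 16.2 TPM, so only BON1 was near 0 in the mutant with WT clearly above it, and the libraries are called bon123 by their label. Libraries of bon123 ABA correlated with each other at 0.958 to 0.989 over log2 values, against 0.974 to 0.987 within the other groups, and library 3 of bon123 ABA is given separately where it decides a value. Nuclear ribosomal RNA made up 5.90% to 10.1% of the bon123 mannitol libraries and 6.10% of WT mock library 1, and 0.475% to 2.21% of the other libraries. The part of these differences in the results was not tested.

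Of the 152 members, 33 were listed at 0 in every library, among them all 21 tRNA rows and 6 unnamed rows of 72 to 80 bases. Another 119 were above 0 in at least 1 library, and 32 were above 0 in all 18. Genes that reached 1 TPM in 3 or more libraries were tested, and 51 members did: 2 of 3 rRNA rows, 12 of 14 complex I rows, 3 of 3 complex IV rows, 6 of 6 complex V rows, 3 of 5 cytochrome c maturation rows, 5 of 7 ribosomal protein rows, both matR and tatC, and 18 of 84 rows for other open reading frames. The only complex III row, COB, which encodes apocytochrome b, did not pass and had at most 1.35 TPM. The filter was not even between the genotypes: 33 members reached it in the libraries of each genotype, 17 reached it only through bon123 libraries, 0 only through WT libraries, and 1 only with both together. Counts over the 51 therefore favour members that are high in bon123. The members that passed were also weakly expressed, with a median of 1.78 TPM over the 18 libraries against 12.3 TPM for all 21727 genes tested.

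Mitochondrion-encoded transcripts took a larger share of every bon123 library than of any WT library. Their summed level was 535.7, 574.6 and 1696 TPM in bon123 ABA, 1081, 1328 and 945.1 TPM in bon123 mannitol and 427.5, 576.9 and 454.5 TPM in bon123 mock. In WT it was 201.2, 220.2 and 194.0 TPM with ABA, 235.9, 213.5 and 213.6 TPM with mannitol and 303.4, 242.1 and 261.4 TPM with mock treatment. The lowest bon123 library, at 427.5 TPM, lay above the highest WT library, at 303.4 TPM, and the groups did not overlap in any treatment.

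As a share of the library total this was 0.0935% ± 0.0659 in bon123 ABA, 0.112% ± 0.0194 in bon123 mannitol and 0.0486% ± 0.00796 in bon123 mock. The WT groups had 0.0205% ± 0.00135 with ABA, 0.0221% ± 0.00129 with mannitol and 0.0269% ± 0.00313 with mock treatment (SD, n = 3 each). Without library 3 the bon123 ABA mean was 0.0555%. The ratio of group means, bon123 over WT, was 4.56 with ABA, 5.06 with mannitol and 1.81 with mock treatment. With ribosomal RNA rows left out of both sum and total, the ratios were 2.82, 4.18 and 1.83, and with the chromosome 2 rows added they were 3.88, 4.29 and 1.68. The chloroplast-encoded share ran the other way, with 0.0180% to 0.111% in bon123 libraries and 0.246% to 1.04% in WT libraries. In bulk seedlings, a change in the mix of cells and a change in RNA per cell cannot be told apart.

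**Figure D1:**
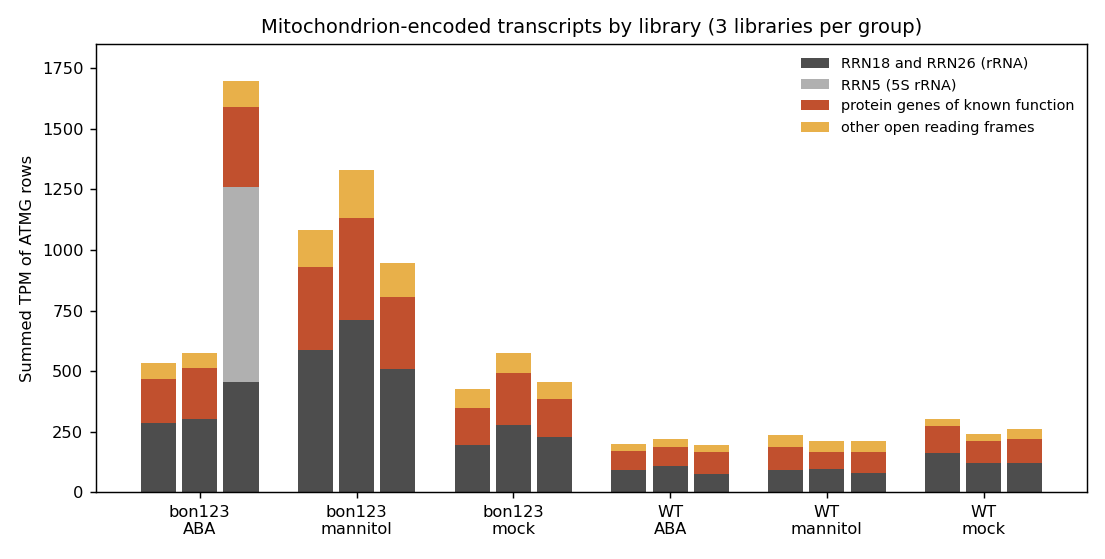
Summed TPM of all mitochondrion-encoded rows in each of the 18 libraries, 1 bar per library and 3 bars per group, stacked by kind of transcript. Every bon123 bar is taller than every WT bar, and the pale grey block in bon123 ABA library 3 is RRN5 at 807 TPM.

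A few rows held much of the signal. Summed over the libraries, RRN18 (the 18S rRNA of the small ribosomal subunit) made up 30.2% of it, RRN26 (the 26S rRNA of the large subunit) 16.2%, RPS3 (a small-subunit protein, row ATMG00090, which has no name in the table) 14.2%, RRN5 (the 5S rRNA) 8.32% and ORF107A (an open reading frame of unknown function) 5.41%. RRN5 had 807 TPM in bon123 ABA library 3 and was listed at 0 in the other 17 libraries. As means of the 9 libraries of a genotype, each library counted equally, RRN18 made up 32.1% in bon123 and 25.7% in WT, RRN26 16.7% and 19.2%, and RPS3 14.2% and 11.9%. The next row was ORF107A with 5.8% in bon123, and RPS12 with 5.78% in WT. The RRN5 row is 118 bases long, and no fold is given for it. Library 3 owes its high sum in part to this row: without rRNA its members summed to 434.7 TPM, against 249.2 and 270.9 TPM in the other bon123 ABA libraries.

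RRN18 was higher in bon123 in every treatment. It had 189.8, 207.4 and 340.3 TPM in bon123 ABA, 407.2, 478.8 and 343.3 TPM in bon123 mannitol and 119.9, 163.5 and 139.4 TPM in bon123 mock. The WT libraries had 54.0, 60.8 and 42.1 TPM with ABA, 57.1, 53.7 and 44.7 TPM with mannitol and 94.6, 68.0 and 66.5 TPM with mock treatment. All 9 bon123 libraries lay above all 9 WT libraries. The log2 fold changes of TPM + 1, bon123 over WT, were 2.18 ± 0.21 with ABA (SE, adjusted p = 1.11e-07), 2.95 ± 0.21 with mannitol (adjusted p = 4.03e-09) and 0.88 ± 0.21 with mock treatment (adjusted p = 0.00151).

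RRN26 had 96.7, 96.3 and 113.7 TPM in bon123 ABA, 180.3, 233.0 and 164.8 TPM in bon123 mannitol and 74.9, 115.3 and 90.6 TPM in bon123 mock. WT libraries had 37.5, 46.1 and 35.6 TPM with ABA, 35.1, 41.7 and 34.8 TPM with mannitol and 68.3, 51.9 and 53.4 TPM with mock treatment. The genotypes again did not overlap, and the log2 fold changes were 1.35 ± 0.17, 2.33 ± 0.17 and 0.67 ± 0.17 in the same order of treatments (adjusted p = 1.68e-06, 3.32e-09 and 0.00173). Nuclear rRNA was also high in all 3 bon123 mannitol libraries, as given above, and its part in these rRNA values was not tested.

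RPS3 followed a similar order. It had 62.5, 75.0 and 141.0 TPM in bon123 ABA, 214.8, 279.6 and 177.1 TPM in bon123 mannitol and 49.0, 68.2 and 55.6 TPM in bon123 mock, against 22.1, 24.8 and 23.1 TPM in WT ABA, 27.3, 22.2 and 22.0 TPM in WT mannitol and 47.2, 31.5 and 32.7 TPM in WT mock. Every bon123 library lay above every WT library, but only by a little in mock-treated plants, where the lowest bon123 value of 49.0 TPM stood beside a highest WT value of 47.2 TPM. The log2 fold changes were 1.86 ± 0.25 with ABA (adjusted p = 3.95e-06), 3.16 ± 0.25 with mannitol (adjusted p = 1.04e-08) and 0.63 ± 0.25 with mock treatment (adjusted p = 0.0306). The mock difference was not called under median-of-ratios scaling, which sets the typical gene equal between libraries (0.45), nor when any 1 of bon123 mock libraries 2 and 3 or WT mock libraries 2 and 3 was left out (0.51 to 0.65).

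ORF107A had 26.7, 25.2 and 59.9 TPM in bon123 ABA, 93.5, 129.7 and 74.6 TPM in bon123 mannitol and 27.0, 15.7 and 18.01 TPM in bon123 mock, and the WT libraries had 3.88 to 9.20 TPM. The log2 fold changes, bon123 over WT, were 2.52 ± 0.32 with ABA, 4.0 ± 0.32 with mannitol and 1.3 ± 0.32 with mock treatment (adjusted p = 1.96e-06, 1.12e-08 and 0.00156). In the RefSeq annotation of TAIR10.1 this reading frame overlaps the end of RRN26 by 185 bases on the opposite strand. Without knowledge of strand, reads from that stretch cannot be assigned to one or the other. RRN26 is 3169 bases long in that annotation, whereas the longest rRNA row measured here has 2568 bases. Whether the RRN26 and ORF107A rows as measured share this stretch is therefore unknown.

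**Figure D2:**
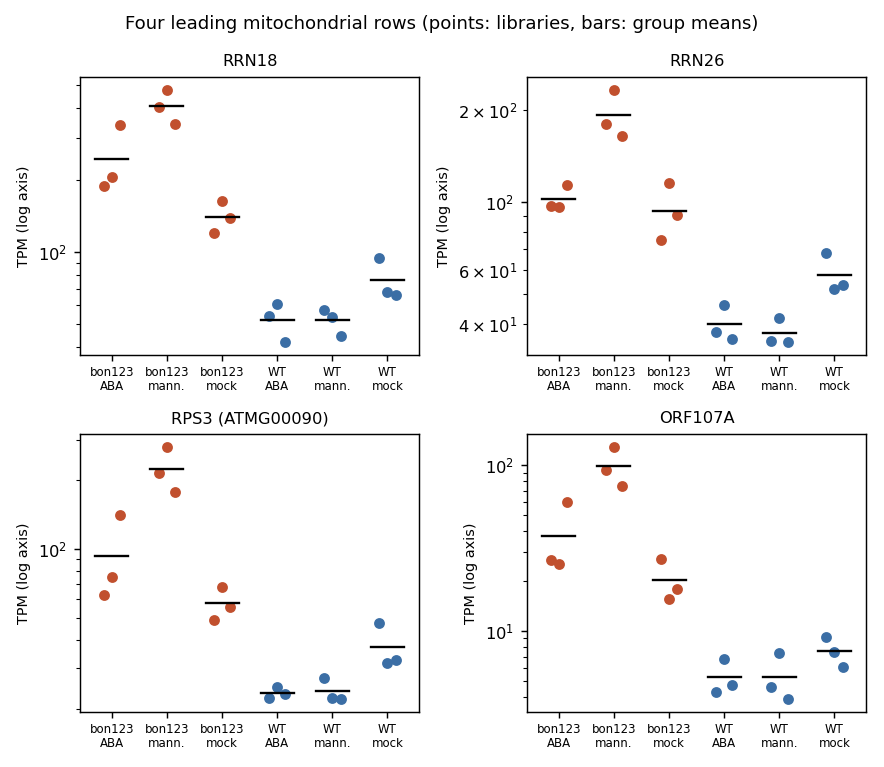
TPM on a log axis of RRN18, RRN26, RPS3 and ORF107A in each library, with bon123 groups in orange on the left, WT groups in blue on the right, and black bars for the means of 3 libraries. In all 4 panels every bon123 point lies above every WT point, and the bon123 mannitol group has the highest mean.

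Across the whole set, the members that differed between genotypes were almost all higher in bon123. In mock-treated seedlings, 29 of the 51 tested members were called higher in bon123 (adjusted p under 0.05, limma) and 0 lower, where 40.1% of all tested genes were called higher, 33.7% lower and 73.8% either way. With ABA, 22 were called higher and 0 lower, where 28.9% of all genes were higher, 47.5% lower and 76.4% either way. With mannitol, 32 were called higher and 2 lower, where 25.4% of all genes were higher, 49.3% lower and 74.6% either way. Under median-of-ratios scaling, 31 members were called higher and 0 lower with ABA, where 39.7% of all genes were higher and 40.0% lower, 34 and 2 with mannitol, where 36.7% and 38.3% were, and 23 and 0 with mock treatment, where 35.4% and 37.9% were. The median log2 fold change of the tested members was 0.55 with ABA, 0.82 with mannitol and 0.67 with mock treatment, and that of all tested genes was −0.31, −0.36 and 0.13. Among the 33 members that reached the filter in the libraries of each genotype, 16 were called higher with ABA, 21 with mannitol and 18 with mock treatment.

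Of the 51 members, 18 were called higher in bon123 in all 3 treatments, and 11 were called in none, where 14.3% and 4.47% of all tested genes were. In 15 members all 9 bon123 libraries lay above all 9 WT libraries, and 0 members showed the reverse, where 10.2% of all tested genes lay wholly above and 18.9% wholly below. Of the 33 members that reached the filter in the libraries of each genotype, 11 lay wholly above and 0 below, and of the 18 others 4 and 0. The 15 are RRN18, RRN26, RPS3, COX1, COX2, COX3, ATP1, ORF25, ATP6-2, NAD1C, NAD5A, CCB382, ORF107A, ORF240A and ORF294, of which NAD5A, ATP6-2 and ORF294 were named after their values were seen. They include both tested rRNAs and all 3 subunits of complex IV. Because low shoot markers run with the genotype, these differences and a difference in the mix of organs cannot be told apart in these data.

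**Figure D3:**
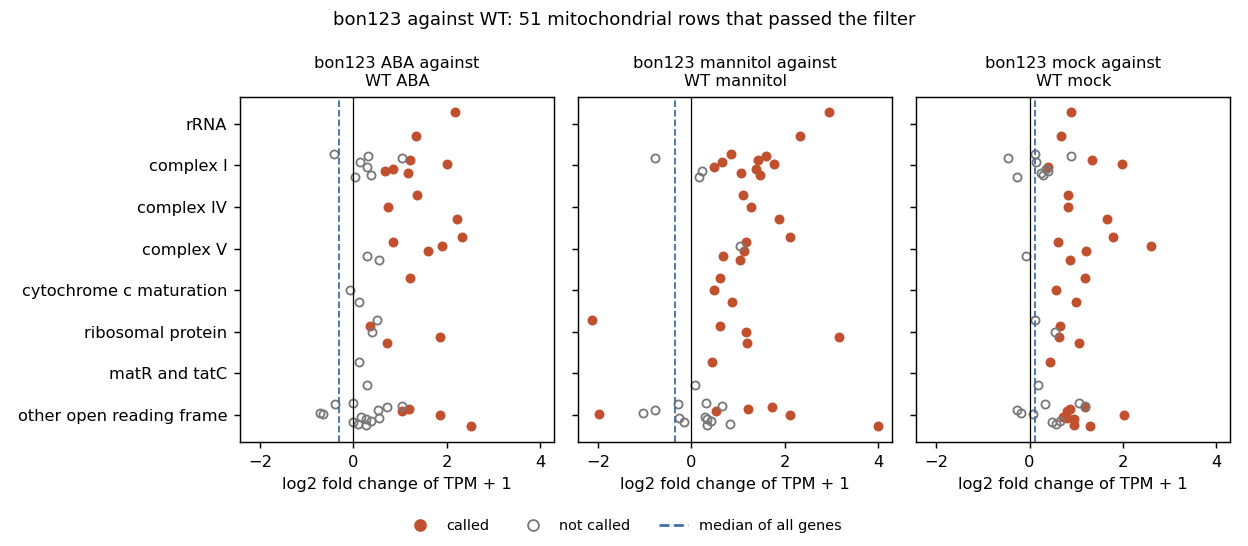
Log2 fold changes of TPM + 1, bon123 over WT, for the 51 members that passed the filter, by class, in ABA, mannitol and mock treatment. Filled points were called, open points were not, and the dashed line is the median of all tested genes (−0.31, −0.36 and 0.13). Most filled points lie to the right of 0 in each panel.

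Complex V makes ATP from the proton gradient. ATP1, the alpha subunit of its catalytic head, had 19.3, 19.4 and 13.2 TPM in bon123 ABA, 12.0, 16.5 and 11.9 TPM in bon123 mannitol and 12.0, 12.8 and 12.3 TPM in bon123 mock. The WT libraries had 2.84, 2.32 and 2.61 TPM with ABA, 2.32, 2.93 and 1.79 TPM with mannitol and 3.39, 2.48 and 2.79 TPM with mock treatment. No library of either genotype came near the range of the other. The log2 fold changes, bon123 over WT, were 2.33 ± 0.17 with ABA, 2.12 ± 0.17 with mannitol and 1.79 ± 0.17 with mock treatment (adjusted p = 1.89e-09, 9.76e-09 and 6.52e-08).

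ATP4, a subunit of the stalk that holds the catalytic head and listed in the table as ORF25, had 8.88, 8.96 and 21.9 TPM in bon123 ABA, 8.82, 7.01 and 9.27 TPM in bon123 mannitol and 5.96, 7.15 and 6.08 TPM in bon123 mock. In WT libraries it had 1.85 to 3.99 TPM. ATP4 was higher in bon123 in all 3 treatments, with log2 fold changes of 1.60 ± 0.25, 1.12 ± 0.25 and 1.21 ± 0.25 in ABA, mannitol and mock plants (adjusted p = 1.88e-05, 0.00069 and 0.000356).

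ATP9, the subunit of the rotating ring, had 5.92, 10.5 and 13.7 TPM in bon123 ABA, 6.28, 4.41 and 6.39 TPM in bon123 mannitol and 9.71, 9.96 and 5.54 TPM in bon123 mock, against 5.48, 1.13 and 0.65 TPM in WT ABA, 2.53, 1.40 and 3.01 TPM in WT mannitol and 0, 0 and 2.41 TPM in WT mock. It was called higher with ABA and mock treatment (log2 fold change 1.89 ± 0.50 and 2.61 ± 0.50, adjusted p = 0.00283 and 0.000215), and the mannitol difference of 1.03 was not called, though it was under median-of-ratios scaling (1.35). Summed with its chromosome 2 copy, which had 7.23 to 25.8 TPM, ATP9 was called in all 3 treatments (1.25 ± 0.24, 1.16 ± 0.24 and 0.90 ± 0.24 in ABA, mannitol and mock plants). The copy alone, AT2G07671, was not called in mock plants (0.32, adjusted p = 0.223). How reads were divided between ATP9 and its copy was not tested.

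Other complex V rows had lower levels. YMF19, which encodes ATP8, had 1.18 TPM on average in bon123 ABA, 3.68 TPM in bon123 mannitol and 1.5 TPM in bon123 mock, against 0.76, 1.81 and 1.73 TPM in the WT groups in the same order. Between genotypes it was called with mannitol alone (0.67 ± 0.27, adjusted p = 0.0339), and not when bon123 mannitol library 3 or WT mannitol library 2 or 3 was left out (0.37 to 0.70). ATP6-1, a row for the proton channel subunit, was called with mannitol (1.04 ± 0.29, adjusted p = 0.0045) and mock treatment (0.87 ± 0.29, adjusted p = 0.0135), and its ABA difference of 0.55 was not called, though it was under median-of-ratios scaling (0.87) and without bon123 ABA library 1 (1.00). The mock call was lost under median-of-ratios scaling and when ATP6-1 was summed with its chromosome 2 copy.

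Complex IV is cytochrome c oxidase, which passes electrons to oxygen, and the mitochondrial genome encodes its catalytic core. COX1 had 3.52, 4.33 and 5.31 TPM in bon123 ABA, 3.8, 3.73 and 4.96 TPM in bon123 mannitol and 3.65, 3.44 and 2.88 TPM in bon123 mock, and 0.97 to 1.96 TPM in WT libraries. COX2 had 13.7, 12.8 and 17.4 TPM in bon123 ABA, 10.5, 12.7 and 11.5 TPM in bon123 mannitol and 9.00, 13.8 and 8.01 TPM in bon123 mock, and 1.67 to 3.89 TPM in WT libraries. COX3 had 1.39 to 3.22 TPM in bon123 libraries and 0.45 to 1.31 TPM in WT libraries. All 3 rows separated the genotypes completely.

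All 3 complex IV rows were called in every genotype comparison. COX3 reached the filter only through bon123 libraries, since among WT libraries only WT mock library 1, at 1.31 TPM, reached 1 TPM. The COX2 log2 fold changes were 2.23 ± 0.23 with ABA (adjusted p = 1.8e-07), 1.88 ± 0.23 with mannitol (adjusted p = 1.85e-06) and 1.65 ± 0.23 with mock treatment (adjusted p = 7.04e-06). For COX1 they were 1.37 ± 0.15, 1.11 ± 0.15 and 0.82 ± 0.15, and for COX3 0.74 ± 0.15, 1.27 ± 0.15 and 0.83 ± 0.15. At these low levels the pseudocount of 1 makes a fold change smaller than the ratio of the TPM values.

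**Figure D4:**
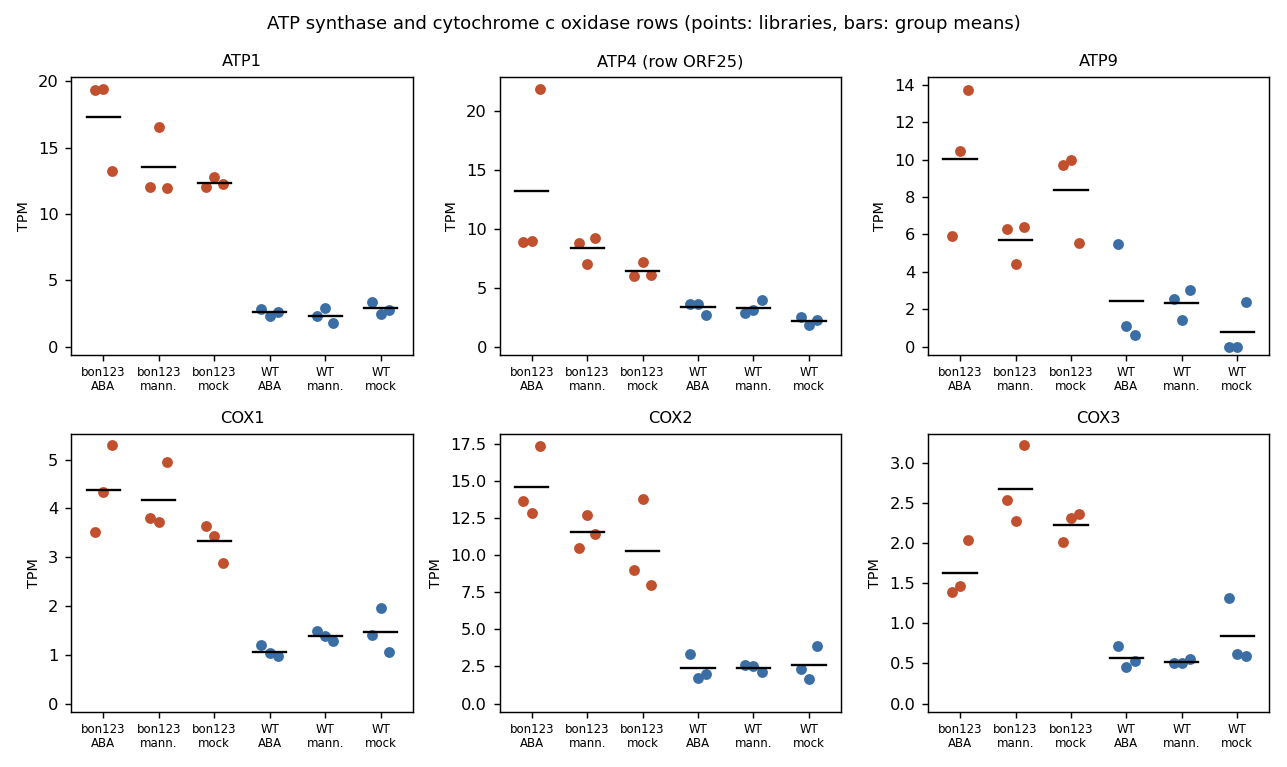
TPM in each library of 3 ATP synthase rows and 3 cytochrome c oxidase rows, bon123 groups in orange on the left, WT groups in blue on the right, and black bars for means of 3 libraries. The colours do not overlap in any panel except that of ATP9, where a WT ABA library at 5.48 TPM exceeds a bon123 mannitol library at 4.41 TPM.

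Complex I takes electrons from NADH, and its rows were less uniform. Of the 12 tested rows, 5 were called higher in bon123 with ABA, 9 with mannitol and 3 with mock treatment, and 0 were called lower, where 28.9%, 25.4% and 40.1% of all tested genes were called higher in these comparisons. Without bon123 ABA library 3 the ABA count was 4 higher and 1 lower. NAD1C, a piece of the trans-spliced nad1 gene, had 9.87, 5.73 and 12.0 TPM in bon123 ABA, 6.76, 12.1 and 6.15 TPM in bon123 mannitol and 7.99, 2.87 and 3.31 TPM in bon123 mock. The WT libraries had 2.04, 0.76 and 1.68 TPM with ABA, 1.13, 1.85 and 2.07 TPM with mannitol and 0, 0 and 1.43 TPM with mock treatment. Its log2 fold changes were 2.02 ± 0.39, 1.76 ± 0.39 and 1.98 ± 0.39 (adjusted p = 0.000205, 0.000767 and 0.000267).

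NAD2B, a piece of the trans-spliced nad2 gene, was called between genotypes in mannitol alone. It had 10.8, 10.2 and 10.4 TPM in bon123 mannitol, against 6.71, 4.34 and 5.15 TPM in WT mannitol, with a log2 fold change of 0.86 ± 0.19 (adjusted p = 0.000808). In ABA and mock plants its differences were −0.41 and 0.11 and were not called. Without bon123 ABA library 3 the ABA difference was −0.70 and was called lower (adjusted p = 0.000246, limma), and it was also called without WT ABA library 1 (−0.51).

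The cytochrome c maturation rows, whose products carry haem to apocytochromes, were all 3 called higher in bon123 in mannitol and mock plants and 1 of 3 in ABA plants, against the same shares of all genes. CCB382, a part of the haem lyase gene ccmFN, had 2.74, 2.42 and 2.47 TPM in bon123 ABA, 1.3, 1.68 and 1.93 TPM in bon123 mannitol and 1.35, 2.63 and 1.77 TPM in bon123 mock, and 0 to 0.91 TPM in WT libraries. It reached the filter only through bon123 libraries and was called in all 3 treatments, with log2 fold changes of 1.21 ± 0.18, 0.61 ± 0.18 and 1.18 ± 0.18. CCB206 (ccmB) and CCB452 (ccmFC) were each called in mannitol (0.86 and 0.49) and mock plants (1.00 and 0.58) but not in ABA plants (0.13 and −0.07).

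RPL16, a large-subunit ribosomal protein whose row overlaps RPS3 by 134 bases on the same strand, had 1.88, 3.38 and 4.52 TPM in bon123 ABA, 6.47, 5.61 and 3.64 TPM in bon123 mannitol and 2.67, 3.37 and 2.73 TPM in bon123 mock, and 0 to 2.23 TPM in WT libraries. Its log2 fold changes were 0.72 ± 0.32, 1.18 ± 0.32 and 1.06 ± 0.32 (adjusted p = 0.0494, 0.00315 and 0.00656), and the ABA call was lost in 16 of 26 other fits, including those without bon123 ABA library 2 or 3 or any 1 WT ABA library. RPL5, a protein of the large subunit, was called with mannitol alone (1.16 ± 0.44, adjusted p = 0.0246), and not when any 1 of bon123 mannitol libraries 1 and 2 or WT mannitol libraries 1 and 3 was left out (0.93 to 1.15). Its chromosome 2 row, AT2G07725, was called higher in bon123 with ABA (0.74), mannitol (0.97) and mock treatment (0.82). How reads were divided between RPL5 and this row was not tested. MATR, the maturase that aids intron splicing, had 1.05 to 1.81 TPM in bon123 libraries and 0.90 to 1.33 TPM in WT libraries and was not called in any comparison of TPM as deposited with all libraries. It was called higher in bon123 ABA than in WT ABA under median-of-ratios scaling (0.55) and without bon123 ABA library 3 (0.39, adjusted p = 0.0137), and in bon123 ABA against bon123 mock under that scaling (0.52).

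Open reading frames without a known function made up 18 of the 51 tested members. ORF240A had 3.73, 6.41 and 10.3 TPM in bon123 ABA, 9.81, 7.62 and 11.4 TPM in bon123 mannitol and 5.36, 6.17 and 4.43 TPM in bon123 mock, and 0.41 to 1.78 TPM in WT libraries. Its log2 fold changes were 1.87 ± 0.24, 2.11 ± 0.24 and 2.03 ± 0.24 (adjusted p = 2.35e-06, 7.7e-07 and 1.07e-06). ORF313 and ORF161, both at low level, were called in no comparison between genotypes, except ORF161 in mock plants without bon123 mock library 3 (0.96, adjusted p = 0.0169). The chromosome 2 row of ORF161, AT2G07719, was called higher in bon123 with ABA (0.71), mannitol (0.83) and mock treatment (0.70). That of ORF313, AT2G07718, was called lower in bon123 with ABA alone (−0.37). ORFX, which encodes the TatC subunit of a protein translocase, was called with mannitol and mock treatment (0.44 and 0.43) but not with ABA (0.12). Those calls were lost without WT mannitol library 1 or 2 (0.36 to 0.40) and without bon123 mock library 1 or WT mock library 2 or 3 (0.34 to 0.48).

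With mannitol, some mitochondrial rows of bon123 rose steeply and a pair fell. Against bon123 mock, 11 of 51 members were called higher and 2 lower, where 12.6% of all tested genes were higher, 48.8% lower and 61.5% either way, and the median log2 fold change was 0.25 for the members and −0.36 for all genes. Under median-of-ratios scaling, which moved the median of all genes in this comparison to 0.01, 27 members were called higher and 2 lower, where 29.4% of all genes were higher and 27.9% lower. ORF107A rose by 2.24 ± 0.32 on the log2 scale (adjusted p = 1.89e-05), RPS3 by 1.93 ± 0.25 (adjusted p = 7.81e-06), RRN18 by 1.53 ± 0.21 (adjusted p = 1.76e-05) and RRN26 by 1.04 ± 0.17 (adjusted p = 6.35e-05). For each of these rows the 3 mannitol libraries lay above the 3 mock libraries, and RRN18, RRN26, RPS3 and ORF107A together made up 80.4% to 84.4% of the mitochondrial sum in bon123 mannitol and 62.9% to 66.8% in bon123 mock.

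RPS12, a small-subunit ribosomal protein listed as RPSL2, went the other way. It had 2.04, 1.61 and 1.57 TPM in bon123 mannitol, against 14.7, 23.9 and 11.8 TPM in bon123 mock, 12.3, 18.1 and 35.3 TPM in bon123 ABA and 7.83 to 18.1 TPM in WT libraries. The 3 bon123 mannitol libraries lay below the other 15 libraries. The log2 fold change was −2.65 ± 0.31 against bon123 mock (adjusted p = 3.07e-06) and −2.12 ± 0.31 against WT mannitol (adjusted p = 1.36e-05). In the other genotype comparisons RPS12 was not called (0.50 with ABA and 0.12 with mock treatment), but the ABA difference was called under median-of-ratios scaling (0.91) and without bon123 ABA library 1 (0.83).

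ORF114 lies just before NAD3 and RPS12 on the same strand, and the order ORF118, ORF114, nad3, rps12 holds in the TAIR10.1 annotation. There ORF114 overlaps ORF118 by 203 bases and nad3 by 41 bases. ORF114, nad3 and rps12 each align to chromosome 2 over 100% of their length at 100% identity. How reads from shared stretches were divided was not tested. ORF114 had 0.88, 3.66 and 2.01 TPM in bon123 mannitol, against 7.56, 16.1 and 7.70 TPM in bon123 mock, and 9.88, 9.11 and 13.9 TPM in WT mannitol. It fell by 1.86 ± 0.40 on the log2 scale against bon123 mock (adjusted p = 0.000761), and its log2 fold change against WT mannitol was −1.99 ± 0.40 (adjusted p = 0.000295). The bon123 mannitol libraries did not overlap those of either group.

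NAD3, a membrane subunit of complex I, could be read only together with its chromosome 2 copy. The NAD3 row was listed at 0 in 5 libraries, and in each of these its copy had 3.18 to 13.1 TPM, whereas the copy was at 0 in 11 of the other 13. NAD3 alone was called in no comparison. Summed with its copy it had 3.18, 4.16 and 3.58 TPM in bon123 mannitol, against 9.97, 15.2 and 5.80 TPM in bon123 mock, and 10.5, 8.29 and 9.50 TPM in WT mannitol. The sum fell by 1.20 ± 0.30 on the log2 scale against bon123 mock (adjusted p = 0.00289) and was lower by 1.17 ± 0.30 against WT mannitol (log2 fold change −1.17, adjusted p = 0.00267). ORF118, the first row of the run, had 0 to 4.79 TPM over all libraries and was not called in either comparison (0.10 and −1.03).

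**Figure D5:**
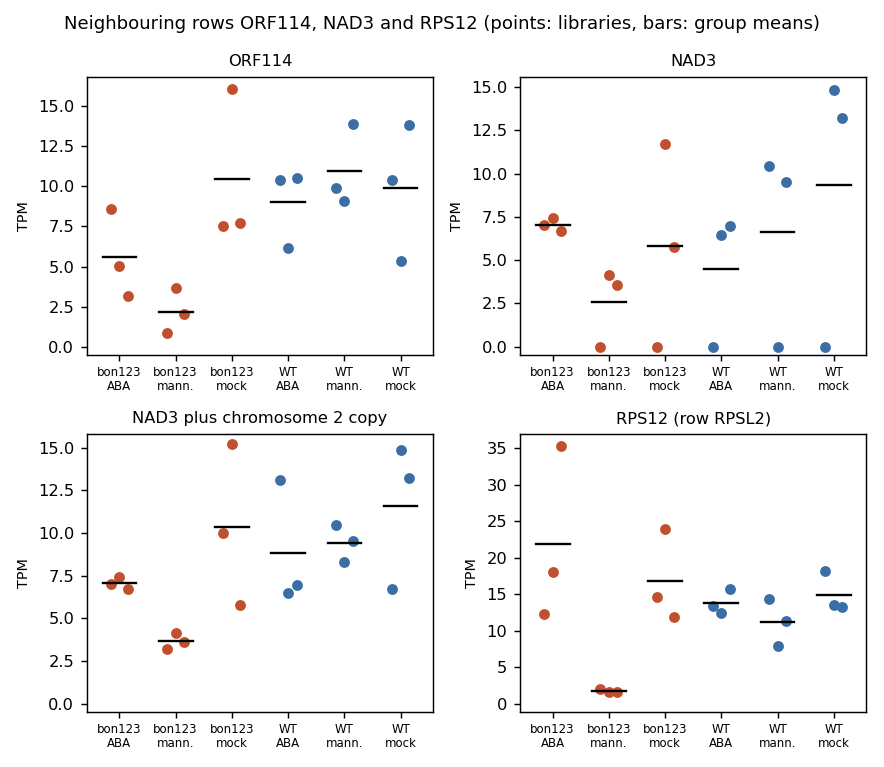
TPM in each library of ORF114, NAD3, NAD3 summed with its chromosome 2 copy, and RPS12, bon123 groups in orange on the left, WT groups in blue on the right, and black bars for means of 3 libraries. The bon123 mannitol group has the lowest mean in each panel, and the single NAD3 row shows the libraries listed at 0 that disappear in the sum.

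Other rows moved less in bon123 mannitol. ORF240A rose by 0.74 ± 0.24 (adjusted p = 0.0135), NAD2B by 0.65 ± 0.19 (adjusted p = 0.00834), YMF19 by 0.86 ± 0.27 (adjusted p = 0.0117) and ATP6-1 by 0.70 ± 0.29 (adjusted p = 0.0473). Without bon123 mannitol library 3 or bon123 mock library 3, ORF240A (0.62 to 0.63) and YMF19 (0.55 to 0.68) were not called, and the ATP6-1 call was lost in 15 of the 18 fits without 1 library. The complex IV rows were not called, with log2 fold changes of 0.25 for COX1, 0.18 for COX2 and 0.18 for COX3, and neither was ATP1 with 0.10. Under median-of-ratios scaling all 4 were called higher (0.65, 0.65, 0.54 and 0.58 for COX1, COX2, COX3 and ATP1).

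ABA in bon123 gave mixed calls. Against bon123 mock, 6 members were called higher and 7 lower, where 15.1% of all tested genes were higher, 55.5% lower and 70.6% either way. The median log2 fold change was 0.09 for the members and −0.51 for all genes. Under median-of-ratios scaling, which put the median of all genes at −0.03, 21 members were called higher and 1 lower, where 33.3% of all genes were higher and 34.7% lower. The direction of many members in bon123 ABA therefore depended on the scaling.

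RRN18 (0.76 ± 0.21, adjusted p = 0.00484), ATP4 (0.83 ± 0.25, adjusted p = 0.00684) and ATP1 (0.44 ± 0.17, adjusted p = 0.0273) were higher in bon123 ABA than in bon123 mock under both scalings and with no overlap between the groups. Without bon123 ABA library 3 the values were 0.50 for RRN18 (adjusted p = 0.0296) and 0.43 for ATP4 (adjusted p = 0.0198), both called, and ATP4 was not called when only the groups compared were fitted. The ATP1 call was lost when any 1 of bon123 ABA libraries 1 and 2 or bon123 mock libraries 1 and 3 was left out (0.35 to 0.43). RPS3 (0.60) and ORF107A (0.77) were called too, but not without library 3 of bon123 ABA, where their log2 fold changes were 0.26 and 0.38, nor without bon123 mock library 3 or 1 other bon123 mock library (library 1 for RPS3, up to 0.58, and library 2 for ORF107A, up to 0.71). Without bon123 ABA library 3, 3 members were called higher and 6 lower. CCB206 (−0.93 ± 0.20, adjusted p = 0.000638) and CCB452 (−0.57 ± 0.14, adjusted p = 0.00142) were lower in bon123 ABA, and under median-of-ratios scaling CCB206 was still called (−0.55) and CCB452 was not (−0.23). NAD2B was lower (−0.56 ± 0.19, adjusted p = 0.0163), but its log2 fold change was 0.02 under median-of-ratios scaling, and it was not called without bon123 ABA library 1 or 2 (−0.42 and −0.41). Without bon123 ABA library 3 it was −0.85 (adjusted p = 5.08e-05).

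In WT the treatments moved few members. With ABA against mock, 0 members were called higher and 3 lower, where 18.9% of all tested genes were higher, 30.6% lower and 49.5% either way. The 3 were RRN26 (−0.53 ± 0.17, adjusted p = 0.0149), RPS3 (−0.62 ± 0.25, adjusted p = 0.047) and RRN18 (−0.54 ± 0.21, adjusted p = 0.0492). None of these calls held under median-of-ratios scaling, where 0 members were called and 22.7% of all genes were higher and 27.7% lower. Without WT mock library 1, which had the highest WT values of all 3 rows and a high share of nuclear rRNA, 1 member was called and the values were −0.41, −0.44 and −0.37. The 3 calls were also lost without WT ABA library 1 or 3.

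With mannitol against mock in WT, 6 members were called higher and 2 lower, where 25.5% of all tested genes were higher, 25.0% lower and 50.5% either way. RRN26 (−0.62 ± 0.17, adjusted p = 0.0057) and RRN18 (−0.54 ± 0.21, adjusted p = 0.0468) were lower. RRN26 was still called under median-of-ratios scaling (−0.70) and without WT mock library 1 (−0.49), and RRN18 was called in neither fit. Among the higher rows, ORF240A (0.66 ± 0.24, adjusted p = 0.0297), NAD1C (0.98 ± 0.39, adjusted p = 0.0484), CCB382 (0.44 ± 0.18, adjusted p = 0.0467) and CCB452 (0.34 ± 0.14, adjusted p = 0.0498) lay near the threshold, and none was called without WT mock library 1. Under median-of-ratios scaling 1 member was called higher and 1 lower, where 23.6% of all genes were higher and 28.9% lower, and without WT mock library 1 the split was 3 higher and 1 lower.

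Whether the treatments acted differently in the genotypes was tested as an interaction, the bon123 response minus the WT response. Both responses share the mock libraries of their own genotype. For ABA, 5 members had a positive and 2 a negative called interaction, where 9.51% and 43.0% of all tested genes did, 52.6% in all. For mannitol, 7 were positive and 3 negative, where 17.0% and 45.3% of all genes were, 62.3% in all. Under median-of-ratios scaling the splits were 11 positive and 0 negative for ABA, where 23.5% and 21.7% of all genes were called, and 14 positive and 2 negative for mannitol, where 30.6% and 28.2% of all genes were called.

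RRN18, RRN26, RPS3 and ORF107A had a called positive interaction with both treatments. For mannitol the values were 2.07 ± 0.30 for RRN18, 1.66 ± 0.24 for RRN26, 2.53 ± 0.35 for RPS3 and 2.7 ± 0.45 for ORF107A (adjusted p = 2.82e-05, 2.13e-05, 1.68e-05 and 8.61e-05). These rows were higher in bon123 mannitol than in bon123 mock, and their mean levels were lower in WT mannitol than in WT mock. For ABA the values were 1.3 ± 0.30, 0.67 ± 0.24, 1.23 ± 0.35 and 1.22 ± 0.45. Those of RRN26 and ORF107A were not called without bon123 ABA library 3 (0.60 and 0.83), and each was also lost without WT ABA library 1 or 3 or WT mock library 1. RPS12 (−2.24 ± 0.44, adjusted p = 0.000383) and ORF114 (−2.07 ± 0.56, adjusted p = 0.00465) had the negative interactions with mannitol among the rows named above.

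Chromosome 2 copies limit what single rows can say. In the TAIR10.1 sequence, 21 of 35 mitochondrial rRNA and known-function genes, and 55 of 74 other open reading frames, align over at least 95% of their length to chromosome 2, at 99.7% to 100% and 99.0% to 100% identity. The inserted piece is known to be longer in the plant than in the assembled chromosome, so a gene without an aligned copy may still have one. Of the 15 members whose genotypes did not overlap, 11 had no such aligned copy, among them RRN18, RRN26, RPS3, COX1, COX2, ATP4 and ORF240A. Coverage was taken per whole gene, so the pieces of a split gene such as nad1 share 1 value. The separate genes ATP6-1 and ATP6-2 were pooled as atp6 at 86.9%, so the place of ATP6-2 among the 11 is uncertain. Some other genes under 95% align in part, such as nad1 and nad5 over 71.9%, ORF107A over 48.8% and COX2 over 39.1%. COX2 also has a chromosome 2 row of the same name, AT2G07695, which was called higher in bon123 with ABA, mannitol and mock treatment. In mock plants, 17 of 23 tested members whose gene did not reach 95% were called higher in bon123, and 12 of 28 whose gene did. The counts were 12 of 23 and 10 of 28 with ABA and 17 of 23 and 15 of 28 with mannitol. Among all tested genes, 40.1% were called higher in mock plants, 28.9% with ABA and 25.4% with mannitol. Members that reached the filter only through bon123 libraries were not set apart in these counts.

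The chromosome 2 rows of the same genes were read beside the members. Of 22 pairs matched by name, 5 had identical values in all 18 libraries, among them RPS12 with AT2G07675 and YMF19 with AT2G07707, so these pairs hold a single measurement. Of 15 copies that passed the filter, 7 were called higher and 1 lower in bon123 with ABA, 9 and 1 with mannitol, and 8 and 0 with mock treatment. Of all tested genes, 28.9% were called higher and 47.5% lower with ABA, 25.4% and 49.3% with mannitol, and 40.1% and 33.7% with mock treatment. The copy of ATP1 (AT2G07698) had 12.4 to 19.3 TPM in bon123 ABA, 9.79 to 13.1 TPM in bon123 mannitol and 8.96 to 10.95 TPM in bon123 mock, and 1.63 to 2.64 TPM in WT libraries. When each member was summed with its copy, the log2 fold changes of ATP1 were 2.50 with ABA, 2.19 with mannitol and 1.94 with mock treatment.

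Nuclear genes that serve the mitochondrion were read from 9 lists of 86 genes, of which 79 passed the filter. The lists were chosen with earlier results of these data known. Over the 79, bon123 against WT, 16 were called higher and 42 lower with ABA, 26 and 27 with mannitol and 37 and 15 with mock treatment. Of all tested genes, 28.9% were called higher and 47.5% lower with ABA, 25.4% and 49.3% with mannitol, and 40.1% and 33.7% with mock treatment. Under median-of-ratios scaling the splits of the 79 were 31 and 27, 44 and 14, and 24 and 18, so the balance of directions depended on the scaling. Under it 39.7% and 40.0%, 36.7% and 38.3%, and 35.4% and 37.9% of all genes were called higher and lower. The respiratory complexes have 45 nuclear subunit genes on these lists. In mock plants 29 of the 45 were called higher and 3 lower in bon123, with a median log2 fold change of 0.38. With mannitol 22 were called higher and 6 lower (median 0.22), and with ABA 8 higher and 22 lower (median −0.27), each set beside the percentages of all tested genes given above for these comparisons. Under median-of-ratios scaling the splits were 22 higher and 11 lower with ABA, 37 and 1 with mannitol and 17 and 6 with mock treatment. In bon123 ABA against bon123 mock, 34 of the 45 were called lower and 5 higher (median −0.65), at a median of −0.51 for all genes. There, 55.5% of all tested genes were called lower and 15.1% higher. Under median-of-ratios scaling 9 of the 45 were lower and 15 higher, where 34.7% and 33.3% of all genes were.

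The genes for mitochondrial RNA metabolism were read in 3 of the lists. The 5 genes of RNA polymerase and termination had 0 called higher and 4 lower with mannitol (median −1.07) and 0 higher and 4 lower with ABA (median −0.78). With mock treatment 1 was called higher and 2 lower (median −0.15). RPOTM, which encodes a mitochondrial RNA polymerase, had log2 fold changes of −2.40 ± 0.14 with ABA, −1.41 ± 0.14 with mannitol and −1.05 ± 0.14 with mock treatment. Of 15 intron splicing and editing factors, 12 were called lower with ABA, 9 with mannitol and 6 with mock treatment, where 47.5%, 49.3% and 33.7% of all tested genes were called lower. In the same order, 0, 0 and 1 of these factors were called higher, where 28.9%, 25.4% and 40.1% of all genes were. Under median-of-ratios scaling, 9, 3 and 6 of the splicing and editing factors and 3, 4 and 2 of the polymerase and termination genes were called lower, where 40.0%, 38.3% and 37.9% of all genes were. Under that scaling 1, 2 and 1 of the splicing and editing factors were called higher, where 39.7%, 36.7% and 35.4% of all genes were. None of the polymerase and termination genes was called higher under it. Of the 3 genes of RNA decay, 1 was called higher and 2 lower with ABA, 0 and 3 with mannitol, and 0 and 2 with mock treatment. They included PNP, the polynucleotide phosphorylase that degrades mitochondrial RNA. Its log2 fold changes were −1.40 ± 0.15 with ABA, −0.77 ± 0.15 with mannitol and −1.43 ± 0.15 with mock treatment. Whether these levels bear on the mitochondrial transcripts was not tested.

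The alternative respiration and dysfunction response genes differed from one another. Of 11 tested, 7 were called higher and 2 lower in bon123 with ABA, 4 and 5 with mannitol, and 6 and 2 with mock treatment. Among all tested genes, 28.9% were higher and 47.5% lower with ABA, 25.4% and 49.3% with mannitol, and 40.1% and 33.7% with mock treatment. Under median-of-ratios scaling the splits were 7 and 2, 5 and 3, and 6 and 2 in the same order. There, 39.7% and 40.0%, 36.7% and 38.3%, and 35.4% and 37.9% of all genes were called higher and lower. AOX1D, an alternative oxidase that bypasses complexes III and IV, had log2 fold changes of 3.94 ± 0.21 with ABA, 3.37 ± 0.21 with mannitol and 4.87 ± 0.21 with mock treatment, bon123 over WT. AOX1A, its main stress-induced relative, had 1.41, −0.62 and 1.17, and the mannitol value was −0.21 and not called under median-of-ratios scaling. NDA1, a NADH dehydrogenase that bypasses complex I and is known to be induced by light, had −6.11, −5.98 and −6.28, each called.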

How the data were processed

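RNA-seq levels were deposited by the authors as TPM for each gene in each of the 18 libraries, scaled to a common total per library. RSEM 1.3.1, HISAT2 2.1.0, DESeq2 1.24.0 and the TAIR10 build come from the submitters' processing notes, which do not say what each was used for. No label states how reads shared with chromosome 2 were divided. Read depth is unknown, so no counting interval is given. From the TPM values, log2(TPM + 1) was fitted with limma 3.58.1 in R 4.3.3 (trended variance, 6 group means, 18 libraries) for the 21727 genes that reached 1 TPM in 3 or more libraries. Tests were two-sided, Benjamini-Hochberg adjusted over all tested genes in each of 9 comparisons, and called at an adjusted p under 0.05. The pipeline was tested on simulated data. Members were named by rule: rRNA rows, the 3 highest rows of each class, up to 4 called rises and 4 called falls per comparison (mean log2 level of at least 2, groups not overlapping), and members whose chromosome 2 namesake was also expressed. Genes were aligned to chromosome 2 with BLAST 2.17.0 on the RefSeq TAIR10.1 sequence. Alternatives changed the scaling, pseudocount, filter, copies, samples fitted and replicate block. The members and lists were chosen with earlier results of these data known. No sequence or coordinate is printed, since the reference used here is of another build.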

Additional observations from a re-analysis of the deposited data

Results flagged for a closer look

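For each member the WT response was subtracted from the bon123 response and the difference tested with limma, and the values below are differences of log2 fold changes whose adjusted p was under 0.05. In the mannitol response, ORF107A differed by 2.7, RPS3 by 2.53, RRN18 by 2.07, RRN26 by 1.66 and NAD2B by 0.75, and RPS12 (RPSL2) by −2.24 and ORF114 by −2.07. In the ABA response, RRN18 differed by 1.3, RPS3 by 1.23, ORF107A by 1.22, RRN26 by 0.67 and COX1 by 0.55, and CCB206 by −0.87 and CCB452 by −0.64. Nuclear rRNA made up 5.90% to 10.1% of the bon123 mannitol libraries, and its part in the mannitol values was not tested. The COX1 value was lost when any 1 of 8 libraries was left out (0.42 to 0.58), and that of NAD2B without bon123 mock library 3, WT mannitol library 2 or WT mock library 2 (0.63 to 0.72). Without bon123 mock library 2, the CCB206 value was −0.72 and was not called. CCB206 and CCB452 were also not called under median-of-ratios scaling.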

How the results depend on the processing

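TPM gives relative levels without depth, so low members rest on an unknown number of reads. Of 95 calls on named members, 63 held in every other fit that gave a value and 32 were lost in at least 1; the 5 TPM filter gave a value for 64 and the fit of only the groups compared for 92. Median-of-ratios scaling moved the number of members called to 22 (bon123 ABA against mock), 29 (bon123 mannitol against mock), 0 (WT ABA), 2 (WT mannitol), 11 (ABA interaction) and 16 (mannitol interaction), turned NAD2B in bon123 ABA to 0.02, and gave 21 calls on the nuclear lists in the ABA interaction. A filter of 5 TPM, which leaves fewer members to test, gave 6 in bon123 ABA, 4 in WT mannitol, 4 in the ABA interaction, and 12, 14 and 11 between genotypes with ABA, mannitol and mock treatment, with 2, 3 and 1 chromosome 2 copies. With no filter 22 members were called in bon123 mannitol and 1 in WT ABA. A pseudocount of 0.1 gave 8 in WT ABA, and one of 5 gave 1 in WT ABA and 3 in WT mannitol. Fitting only the groups compared gave 5 copies in mock plants. Leaving out 1 library gave 9 to 17 members in bon123 ABA, 10 to 16 in bon123 mannitol, 4 to 12 in WT mannitol, 0 to 5 in WT ABA, 4 to 9 and 7 to 14 in the ABA and mannitol interactions, and 33 to 54 nuclear genes in WT mannitol. Without rRNA the shares were 0.0323% in bon123 ABA, 0.0559% in bon123 mannitol, 0.0255% in bon123 mock, 0.0114% in WT ABA, 0.0134% in WT mannitol and 0.0139% in WT mock. With the chromosome 2 rows they were 0.0573% in bon123 mock, 0.0263% in WT ABA, 0.0283% in WT mannitol and 0.0342% in WT mock. Same-numbered libraries did not deviate together (45 pairs, r from −0.244 to 0.263, 7 over 0.1), so the numbers were not taken to pair samples. With a replicate block, 12 members were called in bon123 ABA, 13 in bon123 mannitol, 2 in WT ABA, 8 in WT mannitol, 23, 34 and 29 between genotypes with ABA, mannitol and mock treatment, and 7 and 11 in the ABA and mannitol interactions. Of 18 libraries, 7 correlated best with their own number.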

Other observations

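Of the 152 members, 68 were above 0 in at least 1 library but did not pass the filter. COB, the apocytochrome b of complex III, had 1.19, 0.72 and 0 TPM in bon123 ABA, was listed at 0 in all 3 bon123 mannitol libraries, and had 0.78, 0 and 0 TPM in bon123 mock. In WT it had 0.24, 0 and 0 TPM with ABA, 0, 0.11 and 0.22 TPM with mannitol and 1.35, 0.42 and 0.08 TPM with mock treatment. The gene aligns to chromosome 2 over 100% of its length at 100% identity. Its chromosome 2 row, AT2G07727, had 4.12, 4.48 and 3.24 TPM in bon123 mannitol. That row was called higher in bon123 than in WT with ABA (1.00), mannitol (1.29) and mock treatment (0.98). How reads were divided between COB and this row was not tested. The number of members above 0 was 68 to 87 in bon123 libraries and 44 to 75 in WT libraries, and since depth is unknown this count cannot be read as a difference in expression.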
